A study of Bos grunniens with 24 samples.

Results

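The brush border peptidases described here are 5 genes of the deposited table, picked by their symbols: ANPEP, ENPEP, CPO, MEP1A and XPNPEP2. They are 5 of the 639 genes listed there, of which 240 carry a symbol. Their transcripts were measured by RNA sequencing in 24 libraries of yak (Bos grunniens) calf jejunum, 8 libraries in each of 3 groups. CON calves received neither bacterium, ETEC calves were challenged with enterotoxigenic Escherichia coli, a cause of diarrhoea in young animals, and PET calves received Pediococcus pentosaceus NQ0729, a lactic acid bacterium, and then the same challenge. Tissue was taken when the trial ended. The labels name no dose, age, sex, sampling time or position along the jejunum, and do not say which animal gave which sample, so a p-value here speaks only of the spread among samples, which may be technical.

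The brush border is the layer of microvilli on the luminal face of enterocytes, the absorptive cells of the intestinal epithelium. Peptidases held in its membrane finish protein digestion: they trim the peptides that pancreatic enzymes leave to amino acids and to dipeptides and tripeptides, which transporters of the same membrane take up. Aminopeptidases cut from the amino end, carboxypeptidases from the carboxyl end and endopeptidases within the chain. These enzymes appear as enterocytes mature on the villus, and several differ in level between segments of the small intestine.

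The table gives a read count and an FPKM value (fragments scaled by gene length and by the library's mapped fragments) for each gene and library. Counts over the listed genes ran from 299776 to 826249 per CON library, 466708 to 863801 per ETEC library and 475295 to 1209769 per PET library, and relative depth from the ratio of count to FPKM ran from 0.718 to 1.501 over all libraries. The libraries are not all independent in their values. In the listed genes, replicates 1 to 3 of CON, 1 to 4 of ETEC and 1 to 3 of PET could each be approached by adding weighted shares of 2 further libraries from the same group. These 10 are called close to a sum, and results are also given for the other 14. CON-1, for example, was close to 51.8% of CON-5 plus 51.3% of CON-6, a sum that gives 622 FPKM for ANPEP where CON-1 had 658. The fit was looser for other members: the sums gave 13.1 FPKM for MEP1A in CON-1, which had 19.7, and 1.49 for CPO in CON-3, which had 2.84. At 7 loci that the table places on chromosome Y there were no counts throughout CON, and ETEC-8 and PET-8 held at most 1 count over those loci. Counts at these 7 loci thus went with the challenge in all but those 2 libraries, and their part in comparisons with CON was not tested.

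Levels differed widely between the 5 genes. Per length, in FPKM, ANPEP was the highest in every library, with 46.9 to 88.7% of the summed level of the 5 in CON, against 50.3 to 59.4% in ETEC and 51.8 to 85.8% in PET. By median level the order in CON was ANPEP (332 FPKM), ENPEP (30.4), XPNPEP2 (9.63), MEP1A (6.30) and CPO (2.67). In ETEC it was ANPEP (11.7), XPNPEP2 (3.66), ENPEP (2.61), MEP1A (1.82) and CPO (0.009). In PET the order was that of CON, with ANPEP at 370.0, ENPEP at 27.0, XPNPEP2 at 15.3, MEP1A at 7.34 and CPO at 3.28 FPKM. The ranges of the neighbours below ANPEP overlapped in all 3 groups, apart from CPO and MEP1A in ETEC, where the highest CPO value (0.0699) lay below the lowest MEP1A value (0.726).

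**Figure D1:**
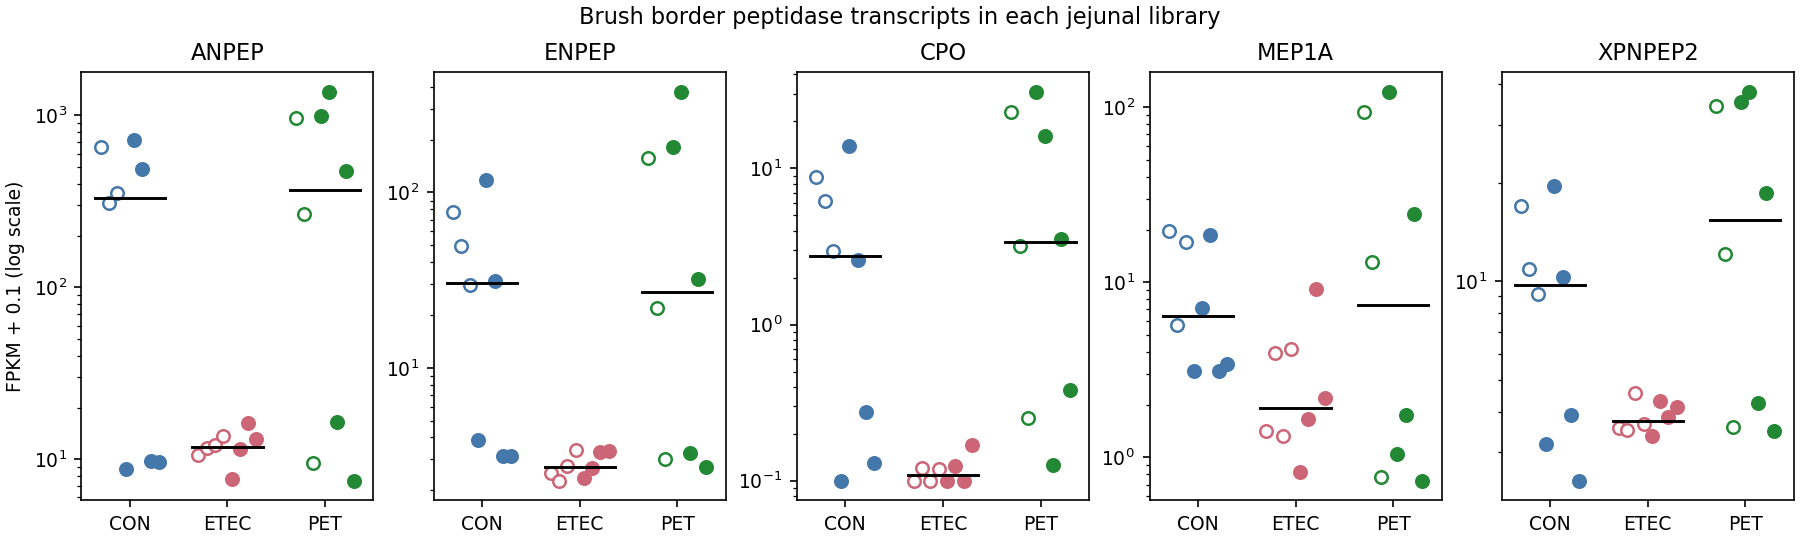
FPKM plus 0.1, on log axes that differ between panels, of the 5 peptidase genes in each of 24 libraries; hollow points are the 10 libraries close to a sum and lines are group medians. For ANPEP, 5 CON and 5 PET libraries lie between 266 and 1374 FPKM and every ETEC library lies between 7.53 and 16.2.

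ANPEP (ENSBGRG00000006001; chromosome 17, 21793317 to 21809835, minus strand) encodes aminopeptidase N, which removes neutral residues from the amino end of peptides; in pigs it is also described as a receptor for the F4 fimbriae of enterotoxigenic E. coli. Its level in CON was lowest at 8.72, had a median of 332 and was highest at 716 FPKM. ETEC libraries ran from 7.53 through a median of 11.7 to 16.2 FPKM, and PET libraries from 7.41 through 370.0 to 1374 FPKM. Within both CON and PET the libraries split: CON-1, CON-2, CON-3, CON-5 and CON-6 were high, as were PET-1, PET-2, PET-4, PET-5 and PET-7, while CON-4, CON-7, CON-8, PET-3, PET-6 and PET-8 had 7.41 to 16.4 FPKM. The groups overlapped through these low libraries. Means were 319 ± 290.5 in CON, 11.96 ± 2.50 in ETEC and 514 ± 534 FPKM in PET (SD, n = 8 each), a mean 26.7-fold higher in CON than in ETEC and 43.0-fold higher in PET than in ETEC. In whole tissue, fewer cells that make these transcripts and less transcript per cell cannot be told apart, for this gene and for the others.

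A short locus beside ANPEP that carries no gene identifier (chromosome 17, 21810872 to 21811306, recorded on the plus strand), lies 1037 bases past the annotated 5′ end of ANPEP, and the authors' table annotates it by similarity to an aminopeptidase. It was chosen after its values had been seen. Its level was 5.25 ± 4.81 in CON, 0.254 ± 0.111 in ETEC and 9.75 ± 10.6 FPKM in PET (SD, n = 8 each). The edgeR log2 fold changes were -4.34 ± 1.13 (SE) in ETEC against CON (adjusted p = 0.00355) and 5.23 ± 1.17 in PET against ETEC (adjusted p = 0.00224). With 31 counts over all ETEC libraries, the locus passed the filter on low counts only through CON and PET, so these p-values are description only. Over the 14 libraries the edgeR adjusted p was 0.182 and 0.141 in these comparisons, and that of DESeq2 was 0.0533 and 0.00804. The strand setting of the counting is not given in the sources used here, so reads of the locus and of ANPEP may not be separable. The next listed gene on the other side, MESP2, is 5917 bases away.

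ENPEP (ENSBGRG00000002076; chromosome 6, 112483757 to 112572178, plus strand) encodes glutamyl aminopeptidase, which removes acidic residues from the amino end and also cuts angiotensin II. CON libraries ran from 3.03 through a median of 30.4 to 117 FPKM, ETEC libraries from 2.17 through 2.61 to 3.29, and PET libraries from 2.60 through 27.0 to 376 FPKM. The same 5 CON and 5 PET libraries as for ANPEP were high, at 21.9 to 376 FPKM. Of the others only CON-4, at 3.76 FPKM, lay above the ETEC range. PET-5 was far above the next library, PET-4, at 181 FPKM. The means were 39.2 ± 40.8 in CON, 2.73 ± 0.467 in ETEC and 97.2 ± 134 FPKM in PET (SD, n = 8 each).

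XPNPEP2 (ENSBGRG00000007748; chromosome X, 10026113 to 10057310, minus strand) encodes membrane-bound aminopeptidase P, which removes an amino-terminal residue that stands before proline and can cut bradykinin. Its level ran from 2.36 through a median of 9.63 to 19.5 FPKM in CON, from 3.26 through 3.66 to 4.46 in ETEC and from 3.38 through 15.3 to 37.9 in PET. The 5 high CON libraries had 9.05 to 19.5 FPKM and the 5 high PET libraries 12.04 to 37.9, a narrower step than for the other aminopeptidases. CON-4 and CON-8 lay below the lowest ETEC library. Means were 9.48 ± 6.35 in CON, 3.77 ± 0.428 in ETEC and 18.6 ± 15.1 FPKM in PET (SD, n = 8 each).

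CPO (ENSBGRG00000007969; chromosome 2, 45554317 to 45587992, minus strand) encodes carboxypeptidase O, which in humans is a membrane-anchored enzyme of enterocytes that removes acidic residues from the carboxyl end. In ETEC the 8 libraries held 6 counts in all, with 0 counts in 4 libraries and at most 3 in any 1. CON libraries ran from 0 through a median of 2.67 to 13.8 FPKM and PET libraries from 0.0260 through 3.28 to 30.9. The high libraries were again the same 5 of CON (2.49 to 13.8 FPKM) and 5 of PET (3.10 to 30.9), and no other library exceeded 0.284 FPKM. Scaled for depth, summed counts were 270-fold higher in CON than in ETEC (exact 95% interval 124 to 738) and 678-fold higher in PET than in ETEC (311 to 1847). Both intervals cover counting error only, not the spread between libraries, and PCR copies are not independent molecules.

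MEP1A (ENSBGRG00000024947; chromosome 24, 15027343 to 15056981, minus strand) encodes the alpha subunit of meprin, a zinc endopeptidase that is secreted or held at the membrane with its beta subunit. CON libraries ran from 3.00 through a median of 6.30 to 19.7 FPKM, ETEC libraries from 0.726 through 1.82 to 9.04, and PET libraries from 0.637 through 7.34 to 122 FPKM. Only CON-1, CON-3, CON-6, PET-1, PET-2, PET-4 and PET-7 lay above the ETEC range, whose top was set by ETEC-7 at 9.04 FPKM with the next ETEC library at 4.08. Its pattern parted from the others in 3 libraries: CON-2 (5.58 FPKM), CON-5 (7.01) and PET-5 (0.946) were within the ETEC range although ANPEP, ENPEP, CPO and XPNPEP2 were all above it there. Means were 9.65 ± 7.42 in CON, 2.99 ± 2.74 in ETEC and 32.2 ± 48.2 FPKM in PET (SD, n = 8 each).

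The first comparison asked how the challenge alone changed these transcripts. In ETEC against CON, ANPEP, ENPEP, CPO and XPNPEP2 fell and MEP1A did not pass the test. The test was edgeR's quasi-likelihood test on counts with library sizes from the ratio of count to FPKM, adjusted by Benjamini-Hochberg over 577 genes, with a threshold of 0.05. Of all 577 genes, 41.2% were called lower, since the table lists only genes that the authors called in some comparison, so 4 of 5 members called lower has to be read against that share. The median log2 fold change was -3.85 over the 5 members and -0.63 over all genes tested.

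CPO fell by 7.76 ± 1.54 (SE) on the log2 scale (edgeR adjusted p = 0.000514), ANPEP by 4.74 ± 1.06 (0.00127) and ENPEP by 3.85 ± 0.96 (0.00284). With 6 counts over all ETEC libraries, CPO passed the filter on low counts only through CON and PET. It was filtered out when ETEC and CON alone were fitted. XPNPEP2, the X-linked member, fell by 1.33 ± 0.51 (0.0262), a call that ended without CON-1 (0.0576) or CON-5 (0.0658). For MEP1A the log2 fold change was -1.69 ± 0.91 (adjusted p = 0.0937; 95% interval -3.57 to 0.19), and without ETEC-7 it was -2.18 with an adjusted p of 0.0480. Without ETEC-8 the log2 fold change of CPO was -8.43. TMM scaling moved the median of all genes by 0.61 on the log2 scale and called 3 members lower, ANPEP, ENPEP and CPO, beside 15.4% of all genes; all 5 kept a negative log2 fold change.

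In the 14 libraries that were not close to a sum (5 CON, 4 ETEC and 5 PET), edgeR called 0 members and 0 genes in ETEC against CON. At an unadjusted p under 0.05 it counted 3 members, ANPEP, ENPEP and CPO, and 153 genes (26.5%). The log2 fold changes there were -4.36 for ANPEP, -3.48 for ENPEP and -6.89 for CPO, and adjusted p-values of the 5 members ran from 0.146 to 0.505. DESeq2 on the same 14 libraries called ANPEP (adjusted p = 0.0100), ENPEP (0.0385) and CPO (0.00248) lower, beside 7.1% of all genes. The spread of CON was wide: ANPEP in the 3 low CON libraries was 8.72 to 9.71 FPKM, inside the ETEC range. No member's FPKM range in ETEC was free of overlap with CON, while 12.3% of all genes had ranges that did not overlap.

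The second comparison asked whether pretreatment changed these transcripts in challenged calves. All 5 members rose in PET against ETEC, where 35.9% of all 577 genes were called higher. The median log2 fold change was 5.16 over the members and 0.45 over all genes. CPO rose by 8.93 ± 1.60 on the log2 scale (edgeR adjusted p = 0.000881), ANPEP by 5.42 ± 1.10 (0.00135), ENPEP by 5.16 ± 1.03 (0.00135), MEP1A by 3.43 ± 0.98 (0.00776) and XPNPEP2 by 2.30 ± 0.53 (0.00253). Of these, ENPEP rested in part on PET-5, without which its log2 fold change was 4.396, and MEP1A on PET-4, without which it was 2.69. For CPO it was 9.60 without ETEC-8, and CPO was filtered out when PET and ETEC alone were fitted. The 5 calls held in each fit without 1 library and with TMM scaling, where 13.1% of all genes were called higher; MEP1A lost its call in 6 of 38 alternatives, with a log2 fold change of 1.52 from limma on log2(FPKM + 0.1) (adjusted p = 0.210). The groups overlapped for every member: PET-6 lay within the ETEC range for all but ANPEP, where PET-3 did, CPO in PET-3 and PET-8 was above that range at 0.150 and 0.284 FPKM, and MEP1A in these libraries was below it. Of all genes, 2.77% had ranges that did not overlap.

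Without the 10 libraries close to a sum, edgeR called 0 members in PET against ETEC (adjusted p from 0.141 to 0.175) and 0 genes. Unadjusted p-values were under 0.05 for 5 members and for 163 genes (28.2%). On these libraries DESeq2 called 4 members higher there, ANPEP (adjusted p = 0.000995), ENPEP (0.000667), CPO (0.000261) and XPNPEP2 (0.0267), beside 14% of all genes, and MEP1A had 0.0539. The log2 fold changes over the 14 libraries, 5.58 for ANPEP, 5.40 for ENPEP, 8.51 for CPO, 3.16 for MEP1A and 2.38 for XPNPEP2, were close to those over all libraries.

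**Figure D2:**
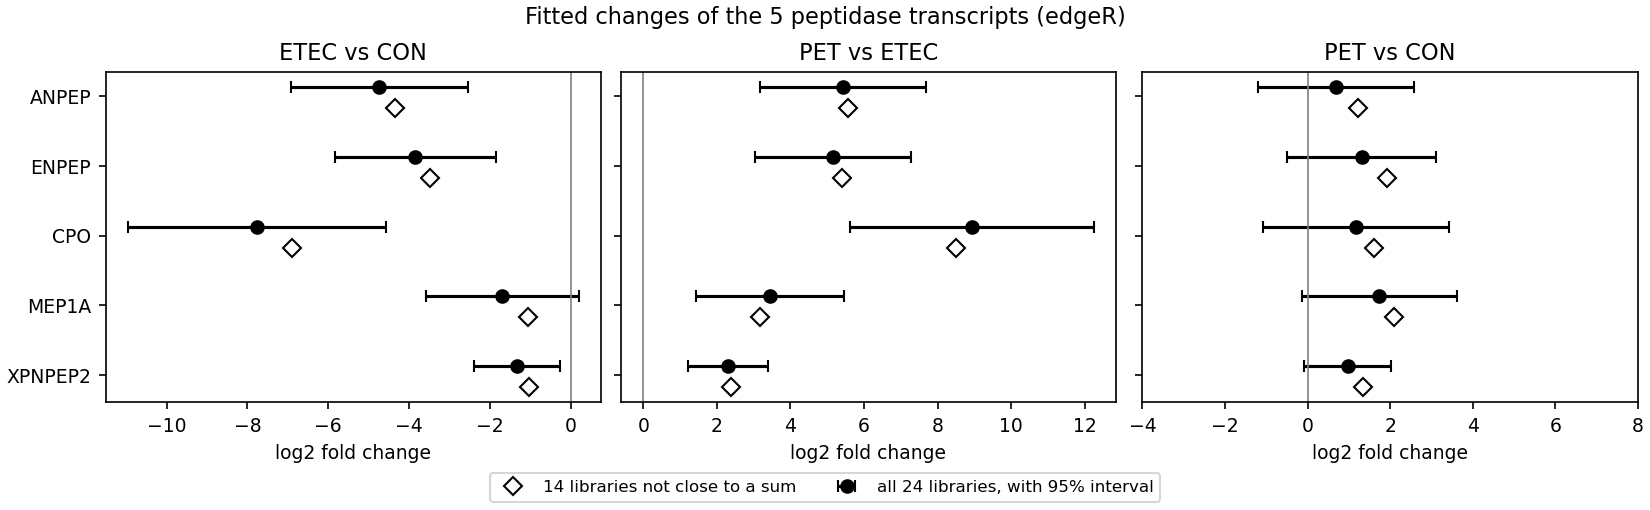
Log2 fold changes of the 5 peptidase genes in the 3 comparisons from edgeR; filled points with 95% intervals are from all 24 libraries, and open diamonds, drawn without intervals, are from the 14 libraries that are not close to a sum. The intervals lie below 0 for 4 members in ETEC against CON, above 0 for all 5 in PET against ETEC, and include 0 for all 5 in PET against CON.

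In the third comparison, PET against CON, edgeR called 0 of the 5 members, where 41.4% of all genes were called in either direction; 0 members had an unadjusted p under 0.05, as 49.9% of all genes did. The intervals of the log2 fold change were wide: -1.20 to 2.57 for ANPEP (adjusted p = 0.575), -0.50 to 3.11 for ENPEP (0.231), -1.09 to 3.43 for CPO (0.408), -0.14 to 3.62 for MEP1A (0.128) and -0.08 to 2.03 for XPNPEP2 (0.127). These values do not show that the 2 groups are alike. With its own size factors, DESeq2 called XPNPEP2 higher in PET (adjusted p = 0.0435, log2 fold change 0.93), beside 29.2% of all genes, and over the 14 libraries edgeR and DESeq2 each called 0 members, beside 1.73% and 14.8% of all genes. This comparison and the other ones share their libraries pairwise, so the 3 sets of values are not independent of each other.

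Seen by library, ANPEP, ENPEP, CPO and XPNPEP2 were together above the ETEC range in 5 of 8 CON libraries and 5 of 8 PET libraries. Among the 14 libraries that were not close to a sum this was so in 2 of 5 CON libraries (CON-5 and CON-6) and 3 of 5 PET libraries (PET-4, PET-5 and PET-7). The summed level of the 5 transcripts ran from 18.3 to 873 FPKM in CON, from 13.8 to 32.2 in ETEC and from 14.3 to 1805 in PET. Where the sum was high, the mix differed as well. ANPEP was 28.7 to 48.0 times the level of XPNPEP2 in the 5 high CON libraries, 22.1 to 36.3 times in the 5 high PET libraries and 2.31 to 4.32 times in ETEC.

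The mix also differed among the high libraries. The ratio of ANPEP to ENPEP was 15.8 in CON-6 and 14.8 in PET-7, and 6.12 in CON-5, 5.50 in PET-4 and 3.66 in PET-5. The ratio of ANPEP to MEP1A was 8.15 in PET-4, 102 in CON-5 and 1453 in PET-5. PET-5 thus had the highest ANPEP, ENPEP and XPNPEP2 levels of all 24 libraries and a MEP1A level below the ETEC median, while PET-4 had the highest MEP1A and CPO levels.

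**Figure D3:**
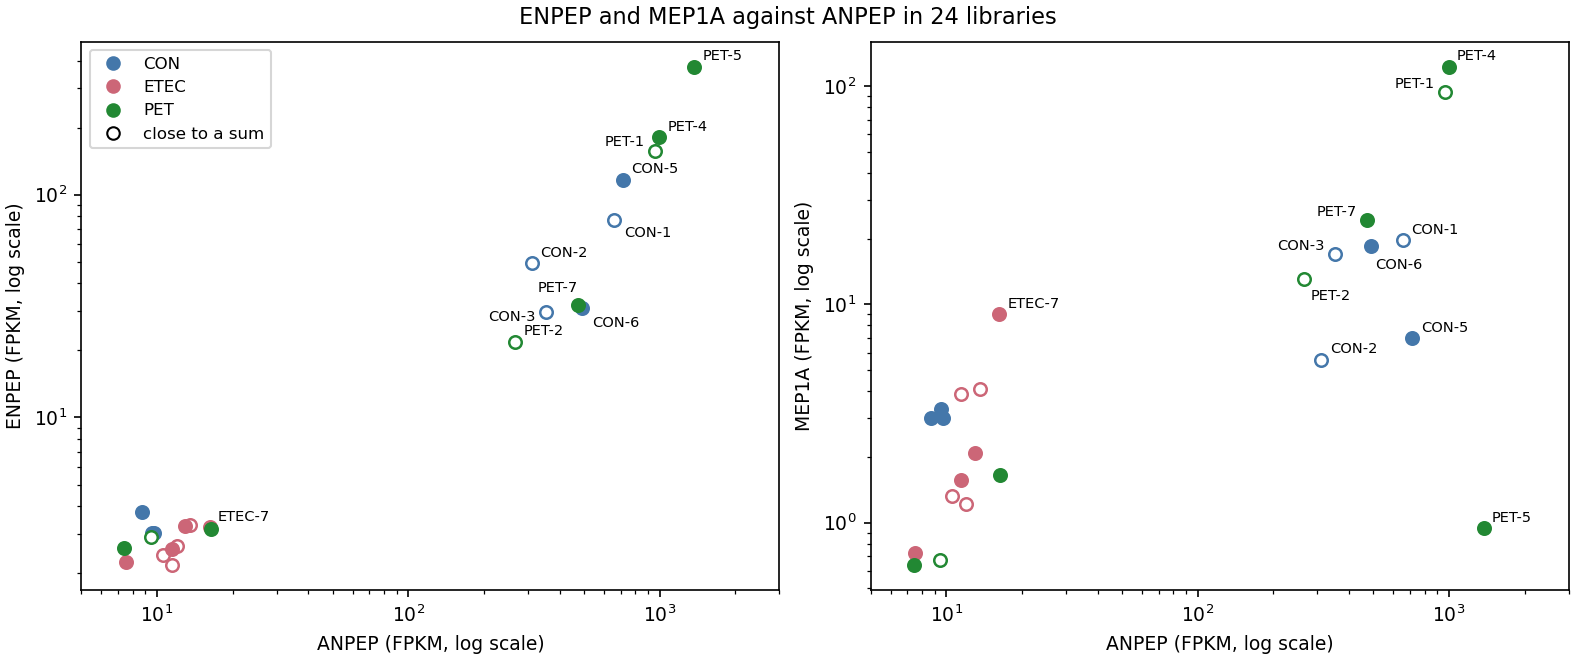
FPKM of ENPEP (left) and MEP1A (right) against ANPEP in 24 libraries, on log axes; colours give the groups and hollow points are libraries close to a sum. ENPEP is high in every library with high ANPEP, whereas MEP1A is at 0.946 FPKM in PET-5, where ANPEP is at 1374 FPKM.

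Segment markers moved with part of this pattern. Of 6 ileum markers, 2 are in the table, FABP6, which carries bile acids inside ileal enterocytes, and SLC10A2, which takes them up; their summed level was 1.35 to 932 FPKM in CON, 1.75 to 5.15 FPKM in ETEC and 3.96 to 186 FPKM in PET. FABP6 was at 378 to 849 FPKM in CON-1, CON-2 and CON-5 and at 51.3 in PET-5. It was at 13.2 and 13.7 FPKM in CON-3 and CON-6, and at 1.43 to 5.08 in PET-1, PET-2, PET-4 and PET-7, which were also high in the peptidases. SLC10A2 was above the ETEC maximum of 0.874 FPKM in all 10 peptidase-high libraries, at 2.60 to 83.0 FPKM in those of CON and at 4.22 to 135 in those of PET; PET-3 and PET-8, low in the peptidases, were at 0.889 and 1.13 FPKM. It fell in ETEC against CON by 4.94 ± 1.22 on the log2 scale (edgeR adjusted p = 0.00243) and rose in PET against ETEC by 4.94 ± 1.22 (0.00381), and over the 14 libraries its adjusted p was 0.165 and 0.141. FABP6 fell in ETEC against CON by 6.46 ± 1.30 (edgeR adjusted p = 0.000542). In PET against ETEC its change of 1.92 ± 1.06 was not called (0.143). In PET against CON it was lower by 4.53 ± 1.18 (0.00488), where SLC10A2 was not called (0.999). Over the 14 libraries the edgeR adjusted p of FABP6 was 0.135, 0.342 and 0.178 in the 3 comparisons. The libraries with FABP6 above 50 FPKM were CON-1 and the 3 in which MEP1A parted from the other members. Of 16 enterocyte markers, 2 are in the table, ANPEP itself and MTTP, which loads lipid onto lipoproteins; MTTP was present in every library, at 19.4 to 48.5 FPKM in CON, 59.5 to 77.4 FPKM in ETEC and 15.0 to 119 FPKM in PET. Unlike ANPEP, MTTP rose in ETEC against CON, by 1.01 ± 0.30 on the log2 scale (edgeR adjusted p = 0.00763). Over the 14 libraries MTTP lost that call with edgeR (0.210) and DESeq2 (0.148).

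Markers of other cells and positional regulators also moved. OSR2, a transcription factor and 1 of 4 enterocyte regulators in the table out of 19 listed, was at 27.1 to 65.6 FPKM in the 5 peptidase-high CON libraries, at 20.2 to 102 in the 5 of PET, and at most 0.252 in the others. It fell by 7.98 ± 1.51 on the log2 scale in ETEC against CON (edgeR adjusted p = 0.000326) and rose by 8.16 ± 1.52 in PET against ETEC (0.000881). With 52 counts over all ETEC libraries, OSR2 passed the filter on low counts only through CON and PET. Of the 4 regulators, 2 were called lower in ETEC against CON (beside 41.2% of all genes) and 3 higher in PET against ETEC (beside 35.9%). ONECUT2 went the other way in both, by 1.37 ± 0.67 and -0.73 ± 0.66, and was not called (edgeR adjusted p = 0.0671 and 0.397). Of 13 T and NK cell markers, 3 are in the table, and their summed level was 22.8 to 102 FPKM in CON, 17.1 to 25.7 FPKM in ETEC and 21.8 to 133 FPKM in PET. The granzymes GZMA and GZMM fell in ETEC against CON, by 1.15 and 1.12, and rose in PET against ETEC, by 1.49 and 0.78, with no call under TMM scaling, while KLRF1 fell in the second comparison.

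The neutrophil markers LTF and MPO, 2 of 16 granulocyte and mast cell markers, fell in ETEC against CON by 1.57 and 1.49, with a summed level of 0.664 to 2.73 FPKM in CON and 0.235 to 0.725 FPKM in ETEC. MPO was not called with TMM scaling. Of 10 enteroendocrine markers 2 are in the table, and NTS fell by 2.69 and CCK rose by 2.19 in ETEC against CON. In PET against ETEC the crypt marker OLFM4 (1 of 7 listed) fell by 1.19 and the goblet cell gene B3GNT6 (1 of 9) by 6.40. ITLN2, 1 of 7 Paneth cell and antimicrobial markers, rose by 3.34, a call lost with TMM scaling (edgeR adjusted p = 0.0501). In a fit with the replicate number as a block, ITLN2 (0.230) and B3GNT6 (0.193) were not called. For B3GNT6 the medians were close, at 0.357 FPKM in ETEC and 0.329 in PET. All 8 PET values of B3GNT6 lay within its ETEC range of 0.171 to 96.9 FPKM, so its fall came from high ETEC libraries. The macrophage gene TREM2, 1 of 10 macrophage and dendritic cell markers, rose by 0.81 in ETEC against CON. A further 7 lists, of B cells, endothelium, erythrocytes, fibroblasts, neurons, smooth muscle and tuft cells, had 0 members in the table. Over the 14 libraries the edgeR adjusted p of OSR2 was 0.126 and 0.141 in these comparisons, and the other genes called here lost their calls too. DESeq2 called OSR2 in both and B3GNT6 in PET against ETEC, where 1 ETEC library held 4010 of the 4045 ETEC counts of B3GNT6. The part of segment or cell type makeup in the peptidase differences was not tested.

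Of the other ectopeptidases on the list, ACE is described here. It encodes a dipeptidyl carboxypeptidase best known for making angiotensin II, and was at 13.7 to 97.2 FPKM in CON, 10.0 to 17.3 FPKM in ETEC and 7.46 to 400.3 FPKM in PET. It fell in ETEC against CON by 2.08 ± 0.65 on the log2 scale (edgeR adjusted p = 0.00931) and rose in PET against ETEC by 3.36 ± 0.68 (0.00135). In the 14 libraries its adjusted p was 0.216 and 0.141 with edgeR in these 2 comparisons, and DESeq2 called it in PET against ETEC (0.00824).

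Transporters that take up the products of these enzymes followed a like order of groups. Of 24 peptide and amino acid transporters on the list, 6 are in the table, and 5 fell in ETEC against CON (beside 41.2% of all genes; 3 with TMM scaling, beside 15.4%), 6 rose in PET against ETEC (beside 35.9%; 5 with TMM scaling, beside 13.1%) and 1 rose in PET against CON, where 26.2% of all genes were called higher. SLC6A19, the main carrier of neutral amino acids, was at 0.884 to 83.2 FPKM in CON, 0.495 to 1.87 FPKM in ETEC and 0.887 to 132 FPKM in PET. Its log2 fold changes were -4.97 ± 1.10 in ETEC against CON (edgeR adjusted p = 0.00117) and 5.62 ± 1.13 in PET against ETEC (0.00135). SLC7A9, which with its partner carries cystine and basic amino acids, changed by -7.36 ± 1.501 (0.000629) and 8.29 ± 1.56 (0.000881). The glutamate carrier SLC1A1 and the basolateral carriers SLC7A7 and SLC7A8 fell by 1.22 to 2.26 and rose by 1.88 to 2.71 on the log2 scale.

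SLC15A1, the carrier of dipeptides and tripeptides, did not follow the peptidases in ETEC against CON. It was at 18.1 to 36.4 FPKM in CON, 18.9 to 26.0 FPKM in ETEC and 16.8 to 187 FPKM in PET. Its log2 fold change in ETEC against CON was -0.27 ± 0.43 (edgeR adjusted p = 0.570, 95% interval -1.16 to 0.62), and 0.34 with TMM scaling. It rose in PET against ETEC by 1.52 ± 0.44 (0.00859; 0.175 with TMM scaling) and in PET against CON by 1.26 ± 0.44 (0.0244). Over the 14 libraries edgeR called 0 of the 6 transporters in each comparison, while 2, 5 and 0 of them had an unadjusted p under 0.05, beside 26.5%, 28.2% and 27% of all genes. There DESeq2 called SLC6A19 and SLC7A9 lower in ETEC against CON, beside 7.1% of all genes. It called all but SLC15A1 higher in PET against ETEC, beside 14% of all genes.

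Beyond the membrane, 1 of 25 genes on the list of intracellular and soluble peptidases is in the table, CNDP1, a carnosine-cleaving enzyme. It fell in ETEC against CON by 1.23 ± 0.50 on the log2 scale (edgeR adjusted p = 0.0331) and rose in PET against ETEC by 1.49 ± 0.51 (0.0188), and neither call held with TMM scaling. Of 17 pancreatic and gastric peptidases, 0 are in the table. Finally, 3 loci on chromosome 29 between 9030768 and 9045548 that carry no gene identifier, chosen after the table had been seen, are annotated by the authors as like NAALADL1, a peptidase first described in rat ileum. The level of the last of them (9043525 to 9045548) was 1.82 to 529 FPKM in CON, 1.37 to 2.35 FPKM in ETEC and 1.60 to 994 FPKM in PET, with the top values in CON-5 and PET-5.

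**Figure D4:**
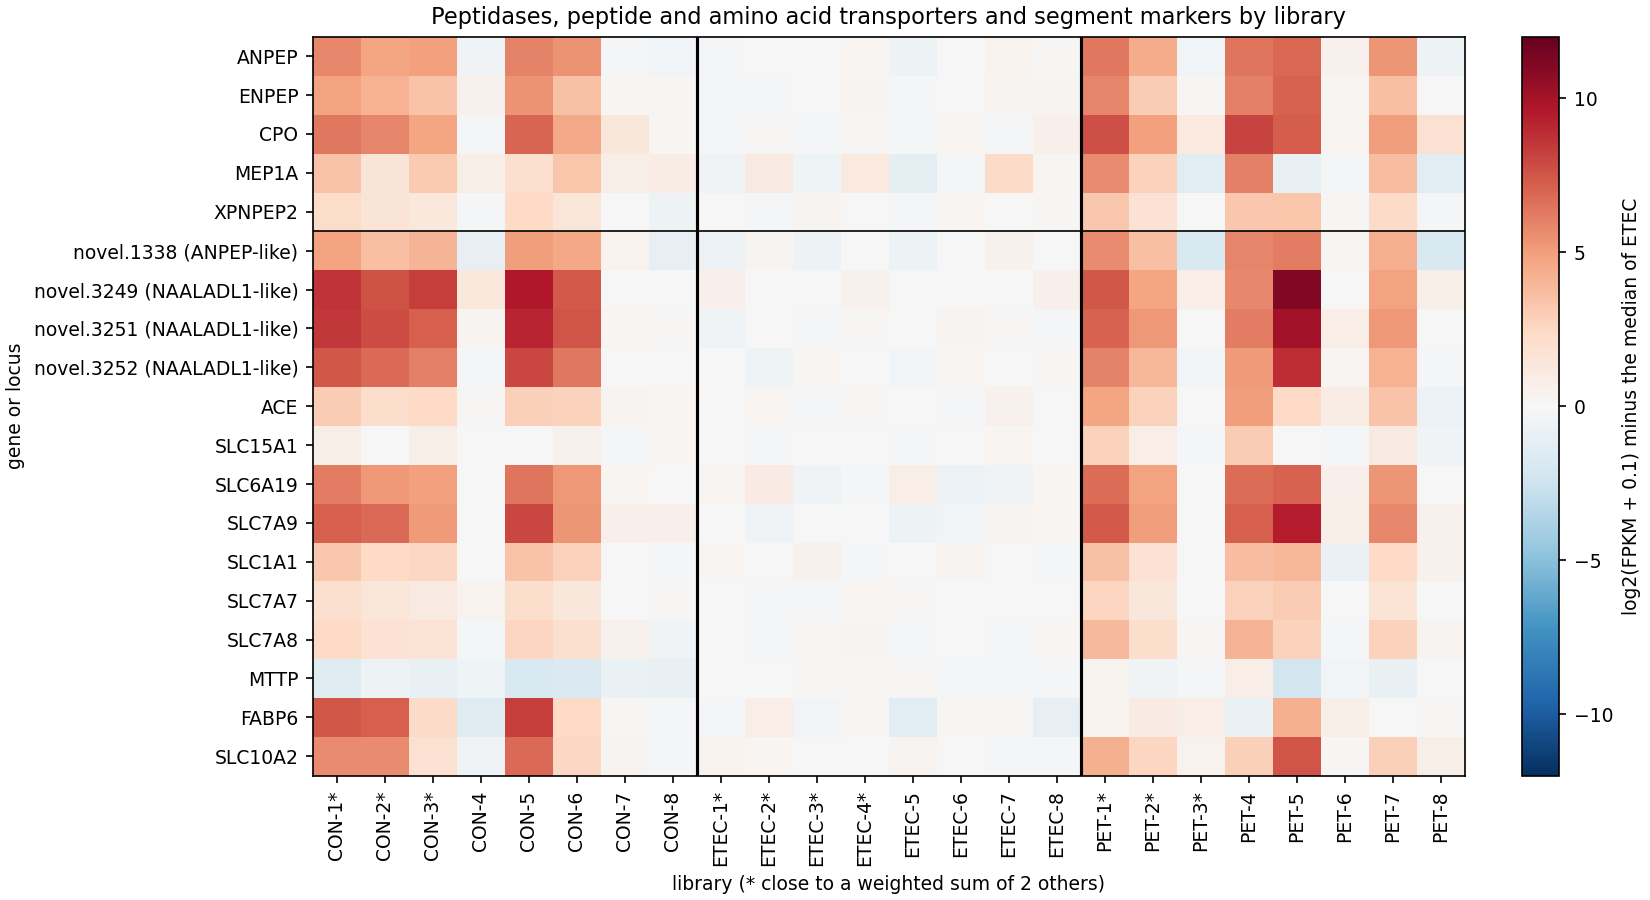
Log2(FPKM + 0.1) minus the median of the 8 ETEC libraries for the 5 peptidases (above the line), other peptidase loci, transporters and markers, in 24 libraries; an asterisk marks libraries close to a sum. Red columns in CON-1, 2, 3, 5 and 6 and in PET-1, 2, 4, 5 and 7 run through most rows, with MEP1A, SLC15A1, MTTP and FABP6 as rows that differ.

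Across the 24 libraries, the genes most like each member were taken as those whose log2(FPKM + 0.1) difference from it had the smallest SD, among 167 named genes whose mean over the libraries reached 1 FPKM. For ANPEP they were SLC6A19 (SD 0.50), the sulfate carrier SLC13A1 (0.61) and the chloride exchanger SLC26A3 (0.65). For ENPEP they were UCP3 (0.61), SLCO4C1 (0.68) and the inositol carrier SLC5A11 (0.69), and for CPO SLC6A19 (0.71), SLC13A1 (0.74) and SLC7A9 (0.80). XPNPEP2 was nearest to SLC7A8 (0.34), SLC7A7 (0.34) and the vitamin C carrier SLC23A1 (0.44). MEP1A had no gene as near: ACE came first at 1.04, then SLC7A8 (1.35) and SLC15A1 (1.39). Over the 14 libraries the first gene was the same for ANPEP, ENPEP, CPO and MEP1A, and SLC7A7 came before SLC7A8 for XPNPEP2. The points share libraries and depth, and no test was made.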

How the data were processed

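RNA was isolated from jejunal tissue with TRIzol, per the labels' protocols, and checked for integrity; the library text there describes small-RNA enrichment, whereas the deposited values are per gene. No aligner, counter, genome build or annotation is named (not given in the sources used here). The authors deposited whole-number read counts per gene and library, per the file headers, and FPKM (scaled by gene length and mapped fragments). The authors' deposited log2 fold changes and p-values (raw and adjusted) cover the 3 comparisons, and each of the 639 genes is called in at least 1. Symbols and coordinates are those of the table: 0 of its IDs and 223 of 240 symbols matched the reference table of assembly Bosgru_T2T1.0, from which nothing is printed.

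The main test on counts was edgeR's (version 4.0.16, R 4.3.3; quasi-likelihood, filterByExpr with the groups, 1 fit over 3 groups, Benjamini-Hochberg over 577 genes). Library sizes came from each library's median ratio of count to FPKM across the 233 genes that had 20 or more counts in every library, because TMM presumes that most genes do not change and the table lists only called genes; this depth set the precision of each value. SE is the log2 fold change over the root of F. The members, gene lists, scaling and tests were chosen with earlier results of these data known. Other fits used TMM, DESeq2 1.42.0, limma 3.58.1, the replicate number as a block, subsets of libraries and each library left out. Libraries close to a sum had a residual, after fitting 2 others by non-negative weights over 510 genes, below 0.8 of that after fitting 1 (0.248 to 0.762, against 0.851 to 1 in the other 14). No 2 replicates agreed within sampling noise (84 pairs; smallest chi-square per gene 30.1). Named genes were the 5 members, up to 6 genes of each pathway list by adjusted p, and 3 nearest genes per member; cell type markers were described by count and range; results for 1 listed gene are not reported here. Only the main edgeR fit was tested on simulated data. Those libraries were independent and held neither the split within CON and PET nor libraries close to a sum, so that test does not cover these features.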

Additional observations from a re-analysis of the deposited data

Results flagged for a closer look

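In 2 of the 15 combinations of member and group, 1 library stood far from the other 7 of its group by Dixon's criterion at the 95% level, which chance meets in about 1 of 20 groups. CPO in ETEC-8 was at 0.0699 FPKM, from 3 counts, above the other ETEC libraries at 0 to 0.0246 FPKM. MEP1A in ETEC-7 was at 9.04 FPKM, above the other ETEC libraries at 0.726 to 4.08 FPKM.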

How the results depend on the processing

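Of 38 alternatives to each test, ANPEP, ENPEP and CPO lost their calls in ETEC against CON and in PET against ETEC under 2, both on the 14 libraries that were not close to a sum; CPO was filtered out when only the groups compared were fitted. Members called in those comparisons were 0 and 0 over the 14 libraries with either scaling (the one with TMM was chosen after seeing the data). Genes called over these libraries in ETEC against CON, PET against ETEC and PET against CON were 0, 0 and 10 with edgeR, 79, 88 and 81 with DESeq2, and 11, 0 and 13 with TMM. With all libraries, TMM called 162 genes in PET against ETEC, limma on log2(FPKM + 1) called 163, and the fit of only the groups compared called 130 in PET against CON, where DESeq2's own size factors called 1 member. XPNPEP2 lost its call in ETEC against CON in 11 alternatives (adjusted p 0.207 with TMM) and MEP1A in PET against ETEC in 6 (0.210 with limma on log2(FPKM + 0.1)). MEP1A was called lower in ETEC against CON by voom (0.00519), with only the groups compared (0.0130) and without ETEC-7. The cause was not tested. Without ETEC-8 and PET-8, which like CON hold at most 1 count over 7 Y-linked loci, edgeR was fitted again. Its adjusted p in ETEC against CON was 0.000581 to 0.0249 for ANPEP, ENPEP, CPO and XPNPEP2 and 0.105 for MEP1A. For the 5 members it was 0.000971 to 0.00763 in PET against ETEC and 0.0746 to 0.453 in PET against CON. The share of all genes called in this fit is not given here. In the remaining libraries counts at these loci went with the challenge throughout, so that fit cannot separate them from the challenge in comparisons with CON. Without 1 library at a time, members called ran from 3 to 5, 5 to 5 and 0 to 0 in the 3 comparisons, and genes called from 369 to 447, 235 to 296 and 209 to 280. In PET against CON, voom reversed the log2 fold changes of ANPEP (-0.47), ENPEP (-0.47), CPO (-0.18) and MEP1A (-0.25), and limma on log2(FPKM + 0.1) that of MEP1A (-0.14). Same-numbered replicates were not taken as pairs, since that would need all 8 correlations of deviations over 0.1: 0, 3 and 6 were for CON and ETEC, CON and PET, and ETEC and PET. With the replicate number as a block, XPNPEP2 lost its call in ETEC against CON (log2 fold change -0.997, adjusted p = 0.0947) and MEP1A in PET against ETEC (2.03, 0.145), MEP1A in PET against CON reversed (-0.10), and 380, 185 and 179 genes were called. The 6 counts of CPO in ETEC limit how well its fall can be sized.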
